A study of Homo sapiens with 8 samples.

Results

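The genes described here are 39 interferon-stimulated and antigen presentation genes, chosen by name. All 39 were found among the 18892 genes of the deposited RNA table, and 24 of them reached 1 read per 1000000 (RPM) in at least 2 of the 4 libraries. That level is called expressed below. The expressed share was 61.5% of the members and 62.6% of all genes in the table, 11833 of 18892. The libraries held polyadenylated RNA of C4-2, an established line of human prostate cancer and a castration-resistant descendant of LNCaP. There were 2 libraries of cells with a control hairpin (shCTRL) and 2 of cells with a hairpin against CDCA8 (shCDCA8), the gene of borealin, which helps to place Aurora B kinase on mitotic chromosomes. Both groups were grown in RPMI medium with fetal bovine serum, and the labels list no treatment, so no interferon is known to have been added. The labels give neither the hairpin sequences nor whether a group is 1 clone or a mixed population, nor whether the 2 libraries of a group came from separate cultures, so p-values measure the spread between these libraries, which may be technical. The small RNA libraries of the same study, made after EZH2 knockdown, are not used here.

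Type I and type III interferons act through receptors whose JAK1 and TYK2 kinases phosphorylate STAT2, which works with IRF9 in a complex that binds interferon-stimulated response elements (ISREs) in the promoters of antiviral genes. Interferon gamma signals through JAK1 and JAK2 to gamma-activated sites (GAS) and raises IRF1 and the class I presentation genes. In class I presentation, the immunoproteasome cuts proteins into peptides, the TAP1 and TAP2 transporter moves them into the endoplasmic reticulum, tapasin (TAPBP) bridges the transporter to the class I molecule, and the HLA heavy chain with beta-2-microglobulin (B2M) carries the peptide to the surface. LNCaP, the parent of C4-2, is known for low JAK1 expression and a poor response to interferon.

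The promoters show how many members carry the interferon signature, and stretches of 10 of them are printed because these genes cover every outcome described below. RefSeq promoters of build GRCh38.p14, each 250 bases before to 50 after a gene's start, were found for 33 of the 39 members. The ISRE core GAAANNGAAA, searched on both strands with overlapping matches counted, was in a window of 22 of the 33 (66.67%) and of 1195 of 27305 RefSeq genes (4.376%). The GAS pattern TTCNNNGAA, searched the same way, was in 10 of 33 members (30.3%) and 9.376% of all genes. Letters of both motifs are in capitals, the strand is that of the gene, and positions count from its start. ISG15 rose after knockdown, IFI6, ISG20, TAP1 and TAP2 fell, B2M did not pass the test, and BST2 and IFIT1 were under 1 RPM.
ISG15, chr1:1013339-1013438, plus strand: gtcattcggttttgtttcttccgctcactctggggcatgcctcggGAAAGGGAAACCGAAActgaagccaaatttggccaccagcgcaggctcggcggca
ISG20, chr15:88638902-88639001, plus strand: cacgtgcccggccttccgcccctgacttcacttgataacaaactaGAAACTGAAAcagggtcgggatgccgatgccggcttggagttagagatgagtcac
IFI6, chr1:27672294-27672393, minus strand: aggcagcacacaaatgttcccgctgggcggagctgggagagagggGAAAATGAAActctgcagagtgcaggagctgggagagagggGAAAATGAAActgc
TAP1, chr6:32853784-32853883, minus strand: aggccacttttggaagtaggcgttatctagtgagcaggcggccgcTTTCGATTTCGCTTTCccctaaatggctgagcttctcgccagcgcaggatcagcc
TAP2, chr6:32838743-32838842, minus strand: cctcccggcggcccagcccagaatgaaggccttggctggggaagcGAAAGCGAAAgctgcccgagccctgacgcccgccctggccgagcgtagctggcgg
B2M, chr15:44711328-44711427, plus strand: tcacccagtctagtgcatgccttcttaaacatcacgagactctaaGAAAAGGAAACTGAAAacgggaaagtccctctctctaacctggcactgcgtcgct
BST2, chr19:17405706-17405805, minus strand: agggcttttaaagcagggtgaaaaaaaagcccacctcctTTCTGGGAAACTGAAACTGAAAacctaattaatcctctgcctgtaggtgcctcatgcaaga
IFIT1, chr10:89392462-89392561, plus strand: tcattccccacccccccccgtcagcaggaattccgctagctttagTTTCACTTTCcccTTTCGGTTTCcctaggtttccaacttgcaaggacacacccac
PARP9, chr3:122564325-122564348, minus strand: cgcaaagTTTCAGTTTCgcttccc
IRF1, chr5:132490844-132490943, minus strand: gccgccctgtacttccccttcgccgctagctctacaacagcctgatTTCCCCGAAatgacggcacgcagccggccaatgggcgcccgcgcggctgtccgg

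The core GAAACTGAAA, read on either strand, was in 11 members: B2M, BST2, DTX3L, IFI44, IFIT3, IFIT5, IFITM1, ISG20, OAS3, PARP9 and SAMD9. The 11 include genes that fell, genes that did not pass the test and genes under 1 RPM. The core GAAAGCGAAA was in 4 members, all of the presentation machinery: PSMB8, PSMB10, TAP1 and TAP2. PARP9 and DTX3L lie head to head, and the 10 capital letters in the PARP9 line are the match counted for both genes. In BST2, IFI27, IFITM1 and MX1 the GAS match overlaps ISRE letters, and in the IRF1 stretch only a GAS match is present. An ISRE core was in 13 of the 20 expressed members with a window (65%) and in 9 of the 13 under the limit (69.23%). By direction it was in 9 of 12 that fell, 1 of 2 that rose and 3 of 6 that did not pass the test. A match is a description of letters and does not show that a factor bound there.

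Depth and scale bear on every value below. CDCA8 was at 14.2 and 16.5 RPM in shCTRL against 3.98 and 3.94 RPM in shCDCA8, which matches the labels. The RPM values correspond to whole reads out of totals of 46709612 to 55289855 reads per library, of which the table's rows hold 43.6% or 41.1% in shCTRL and 33.3% or 34.2% in shCDCA8. The median log2 fold change of all 11833 expressed genes was -0.27, so values are given as deposited and, where it matters, after median-ratio scaling, which moves that median to 0.0058. Differences were tested with limma on log2(RPM + 1), two-sided, with Benjamini-Hochberg adjustment over all 11833 genes, n = 2 libraries per group, and a gene is said to have risen or fallen where its adjusted p was under 0.05. Log2 fold changes are shCDCA8 minus shCTRL with their standard error (SE), and the added 1 RPM understates the change of low genes. All 8 luminal prostate markers examined, KLK3 and TMPRSS2 among them, were expressed, with summed levels of 3237 and 3388 RPM in shCTRL against 1791 and 1909 RPM in shCDCA8. Of the 8, 5 fell, among them KLK3 by 1.87 and TMPRSS2 by 1.16, FOLH1 did not pass the test (0.06), and 2 rose, KRT8 by 0.74 and KRT18 by 0.49. After median-ratio scaling 4 were lower and 3 higher. Of 7 leukocyte markers 2 were expressed, CD68 and LCP1, and the summed level was 61.6 and 68.3 RPM in the controls and 31.5 and 32.2 RPM after knockdown, while CD3E and CD14 were at or near 0. LCP1 made up most of the leukocyte sum, at 55.4 and 59.6 RPM in the controls and 22.3 and 21.9 RPM after knockdown. LCP1 fell by 1.34 (adjusted p 9.42e-07) and CD68 rose by 0.41 (adjusted p 0.0321). Of 7 fibroblast and endothelial markers 2 were expressed, COL1A1 and VWF, with sums of 15.1 and 18.7 RPM in the controls and 5.21 and 6.15 RPM after knockdown. The part of these differences, and of the shift in all genes, in the results below was not tested.

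Most expressed genes passed the test, so the members are read against that background. Of all expressed genes 66.4% were called, 18.8% higher and 47.6% lower after knockdown. Of the 24 expressed members 16 were called, 3 higher (12.5%) and 13 lower (54.2%). Among them IRF1 (higher) and IFITM1 and MX1 (lower) passed the level filter only through the group where they were high. For these 3 the groups could not overlap, so the member counts are descriptions. The shares of members lie near those of all genes, so the member count alone sets the module apart in neither direction. The members' median log2 fold change was -0.37, with a range from -1.45 to 0.82. After median-ratio scaling 4 members were higher and 8 lower, against 33.2% and 33.6% of all genes, with a member median of -0.20. The 2 groups of libraries did not overlap for 22 of 24 members, and for 83.2% of all genes. Lower calls of at least 2-fold numbered 4 members, beside 14.6% of all genes, and higher calls of that size numbered 0, beside 3.19% of all genes. In bulk RNA, fewer cells expressing a gene and less RNA per cell cannot be told apart.

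**Figure D1:**
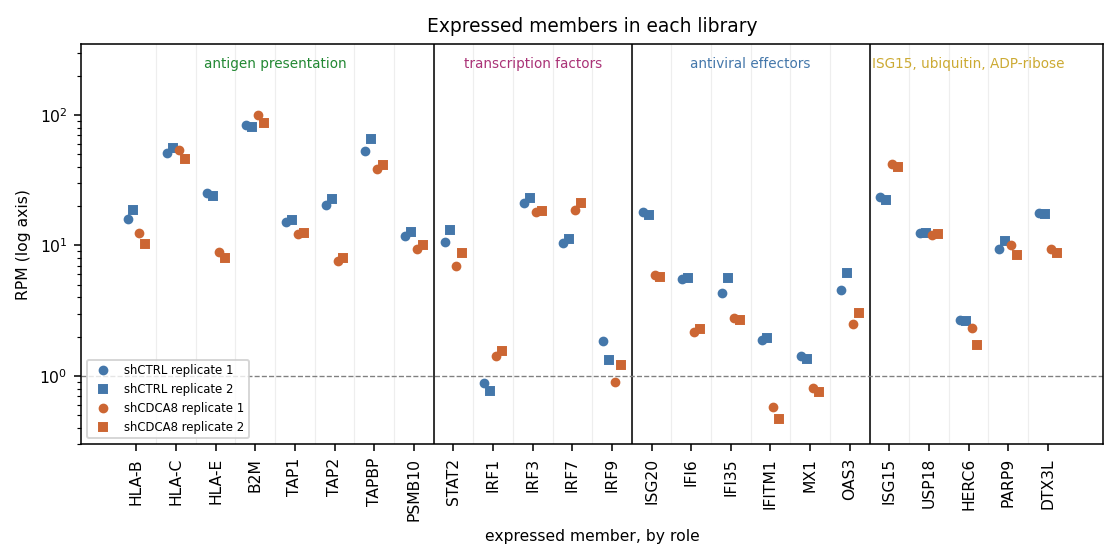
RPM (log axis) of the 24 expressed members in each of the 4 libraries, grouped by role, with shCTRL in blue, shCDCA8 in orange, and the dashed line at 1 RPM. ISG15 and IRF7 sit higher in both shCDCA8 libraries, and all 6 expressed antiviral effectors sit lower.

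The presentation genes did not move as a block: HLA-E and TAP2 fell by more than 2-fold while HLA-C and B2M did not pass the test. Of 10 members 8 were expressed, 5 fell, 0 rose and 3 did not pass the test, with a median log2 fold change of -0.43. After median-ratio scaling 2 were lower, HLA-E and TAP2, and 1 was higher, B2M.

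HLA-E, the class I molecule that presents signal peptides to natural killer cell receptors, was at 25.3 and 23.8 RPM in shCTRL against 8.88 and 7.96 RPM in shCDCA8. Both shCDCA8 libraries were far below both controls, and the log2 fold change was -1.44 (SE 0.124, adjusted p 1.51e-06). HLA-B, a classical heavy chain, was at 16.0 and 18.5 RPM and then 12.4 and 10.3 RPM. It fell by 0.57 (SE 0.137, adjusted p 0.00294), without overlap. After median-ratio scaling the HLA-B difference was -0.28 (adjusted p 0.0941), which ends the call. HLA-C, also a classical heavy chain, was at 51.1 and 55.4 RPM in shCTRL against 53.9 and 45.7 RPM in shCDCA8, so the groups overlapped. Its log2 fold change was -0.10 (SE 0.114, adjusted p 0.459) and changed sign to 0.21 (adjusted p 0.125) after median-ratio scaling and to 0.30 (adjusted p 0.0141, a higher call) with edgeR on recovered whole reads without a level filter. HLA heavy chains have near-identical stretches, so their separate counts are uncertain.

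B2M, the light chain shared by all class I molecules, was at 84.0 and 80.7 RPM in shCTRL against 101 and 87.1 RPM in shCDCA8. Both shCDCA8 libraries were above both controls, but the difference of 0.18 (SE 0.104) missed the threshold (adjusted p 0.141). Median-ratio scaling gave 0.49 (adjusted p 0.00349), a call in the higher direction. The light chain and HLA-E thus had differences of opposite sign on the RPM scale.

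TAP2, one chain of the peptide transporter, was at 20.5 and 22.8 RPM in shCTRL against 7.64 and 7.98 RPM in shCDCA8, a log2 fold change of -1.36 (SE 0.125, adjusted p 2.55e-06). TAP1, its partner chain, was at 15.2 and 15.6 RPM and then 12.2 and 12.4 RPM. The TAP1 groups did not overlap, but its difference of -0.30 (SE 0.121, adjusted p 0.0429) lost the call when any 1 library was left out (adjusted p 0.0881 to 0.167) and was -0.01 after median-ratio scaling. Within each library the log2(RPM + 1) ratio of TAP2 to TAP1 was 0.41 and 0.52 in shCTRL and -0.61 and -0.58 in shCDCA8, a change of -1.06. An exact two-sided permutation test gave p 0.333, the smallest that 2 libraries against 2 allow, and the pair was chosen after its values were seen. TAP1 overlaps the antisense gene PSMB8-AS1, and no source used here gives the strand setting of the counting.

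TAPBP was at 52.6 and 65.7 RPM in shCTRL against 38.8 and 41.0 RPM in shCDCA8. It fell by 0.55 (SE 0.121, adjusted p 0.00175), and the call ended after median-ratio scaling (-0.24, adjusted p 0.0594). The gene overlaps RGL2, whose own log2 fold change was 0.33 (adjusted p 0.0479).

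The 3 immunoproteasome subunits replace constitutive catalytic subunits of the proteasome when interferon is present. PSMB10, which replaces PSMB7, was at 11.7 and 12.6 RPM in shCTRL against 9.40 and 10.1 RPM in shCDCA8. The groups did not overlap, and the difference of -0.30 (SE 0.127) missed the threshold (adjusted p 0.0558). PSMB7 itself rose, from 21.4 and 23.8 to 32.2 and 31.6 RPM, by 0.48 (SE 0.113, adjusted p 0.00265). The log2(RPM + 1) ratio of PSMB10 to PSMB7 was -0.81 and -0.86 in shCTRL and -1.67 and -1.56 in shCDCA8, without overlap (exact permutation p 0.333, the smallest possible). Of the other constitutive subunits, PSMB6 rose by 0.48 (adjusted p 0.00136) and PSMB5 did not pass the test (-0.08, adjusted p 0.489), though it was a higher call after median-ratio scaling (0.23, adjusted p 0.0366).

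PSMB8 and PSMB9 were under the limit of 1 RPM. PSMB8, which replaces PSMB5, had 31 and 32 reads in shCTRL and 6 and 4 reads in shCDCA8, or 0.582, 0.685, 0.115 and 0.0723 RPM, and it overlaps PSMB8-AS1. PSMB9, which replaces PSMB6, had 5 and 2 reads in shCTRL and 15 and 10 in shCDCA8. The 2 subunits thus moved in opposite directions, PSMB8 at 4 to 32 reads per library and PSMB9 at 2 to 15. In edgeR's quasi-likelihood test on recovered reads without a level filter, added after the values were seen, PSMB8 had a log2 fold change of -2.34 (adjusted p 0.000226) and PSMB9 of 2.09 (adjusted p 0.0256). The log2(RPM + 1) ratio of PSMB8 to PSMB5 was -5.28 and -5.19 in shCTRL and -5.69 and -5.77 in shCDCA8, a change of -0.50 that became -0.85 with 0.5 RPM added and -1.84 with 0.1 RPM added. For PSMB9 to PSMB6 the change of -0.27 turned to 0.50 with 0.1 RPM added in place of 1, so its direction depends on that number.

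The interferon transcription factors included 2 of the 3 members that rose. IRF7, the factor that amplifies type I interferon production, was at 10.5 and 11.2 RPM in shCTRL against 18.6 and 21.3 RPM in shCDCA8. Its log2 fold change was 0.82 (SE 0.126, adjusted p 0.000131). IRF1, an early target of interferon gamma signalling, was at 0.882 and 0.771 RPM in shCTRL against 1.42 and 1.56 RPM in shCDCA8. Both factors were higher in both shCDCA8 libraries than in either control. IRF1 rose by 0.44 (SE 0.125, adjusted p 0.00782), but it passed the level filter only through the shCDCA8 libraries.

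The 3 other factors had lower values. STAT2, a signal transducer of type I interferon, was at 10.7 and 13.1 RPM in shCTRL against 6.95 and 8.77 RPM in shCDCA8, and it fell by 0.54 (SE 0.151, adjusted p 0.00724). That call ended after median-ratio scaling (-0.26, adjusted p 0.123), and likewise when shCDCA8 replicate 1 was left out (-0.39, adjusted p 0.0672). IRF9, the DNA-binding subunit of the same complex, was at 1.84 and 1.33 RPM and then 0.900 and 1.21 RPM. Its difference of -0.33 (SE 0.144) had an adjusted p of 0.0636, which went to 0.0101 without shCTRL replicate 2 (-0.47) and 0.0375 without shCDCA8 replicate 2 (-0.44), and to 0.323 without shCTRL replicate 1 (-0.18) and 0.335 without shCDCA8 replicate 1 (-0.22). IRF3, the factor activated by nucleic acid sensors, was at 21.2 and 23.0 RPM and then 18.1 and 18.2 RPM (-0.27, SE 0.117, adjusted p 0.0603), with a sign change to 0.03 after median-ratio scaling. IRF3 overlaps BCL2L12, so reads in the shared stretch cannot be told apart without strand. With 2 higher, 1 lower and 2 not called of 5, the group's median was -0.27, and after median-ratio scaling 2 were higher and 0 lower. Of all genes 18.8% were higher and 47.6% lower, and after that scaling 33.2% and 33.6%.

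The antiviral effectors fell wherever they were expressed: of 17 members 6 were expressed and all 6 fell, the median being -0.85 on the log2 scale. Of all expressed genes 47.6% were called lower, and 33.6% after median-ratio scaling. After median-ratio scaling 5 of the 6 remained lower calls, with a median of -0.64, and after quantile normalization MX1 turned to 0.0083. IFITM1 and MX1 passed the level filter only through the shCTRL libraries, where they were high, so they had to differ and the count of 6 is a description.

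ISG20, a 3′ to 5′ exonuclease that degrades viral RNA, was at 18.2 and 17.1 RPM in shCTRL against 5.93 and 5.73 RPM in shCDCA8. Its log2 fold change was -1.45 (SE 0.126, adjusted p 1.69e-06), the most negative of the 24 on the log2(RPM + 1) scale, while in edgeR on recovered reads IFITM1 was lower (-1.57 against -1.29). IFI6, a mitochondrial and endoplasmic reticulum protein with antiviral action, was at 5.50 and 5.63 RPM and then 2.16 and 2.30 RPM. The 2 libraries of each group lay close together, and IFI6 fell by 1.02 (SE 0.132, adjusted p 3.25e-05). IFITM1, a membrane protein that restricts virus entry, was at 1.89 and 1.95 RPM in shCTRL against 0.574 and 0.470 RPM in shCDCA8. It fell by 0.94 (SE 0.124, adjusted p 4.03e-05). Its neighbours IFITM2 and IFITM3, near-identical in parts so that reads could be shared, fell by 1.61 (adjusted p 8.95e-07) and 1.58 (adjusted p 5.71e-07).

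OAS3, which makes the 2-5A messenger that activates RNase L, was at 4.60 and 6.17 RPM in shCTRL against 2.49 and 3.04 RPM in shCDCA8 (-0.75, SE 0.156, adjusted p 0.00112). IFI35, an interferon-induced leucine zipper protein, was at 4.35 and 5.63 RPM and then 2.79 and 2.69 RPM (-0.67, SE 0.146, adjusted p 0.00157). The IFI35 call ended with DESeq2 (adjusted p 0.0597) and after quantile normalization (-0.33, adjusted p 0.0758). For OAS3 and IFI35 the 2 controls differed from each other more than for ISG20, yet the groups did not overlap. MX1, a dynamin-like GTPase that blocks influenza virus, was at 1.43 and 1.35 RPM and then 0.804 and 0.760 RPM, and it fell by 0.42 (SE 0.123, adjusted p 0.0095). The MX1 call ended after median-ratio scaling (-0.26, adjusted p 0.075), and likewise when shCDCA8 replicate 2 was left out (adjusted p 0.0529).

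**Figure D2:**
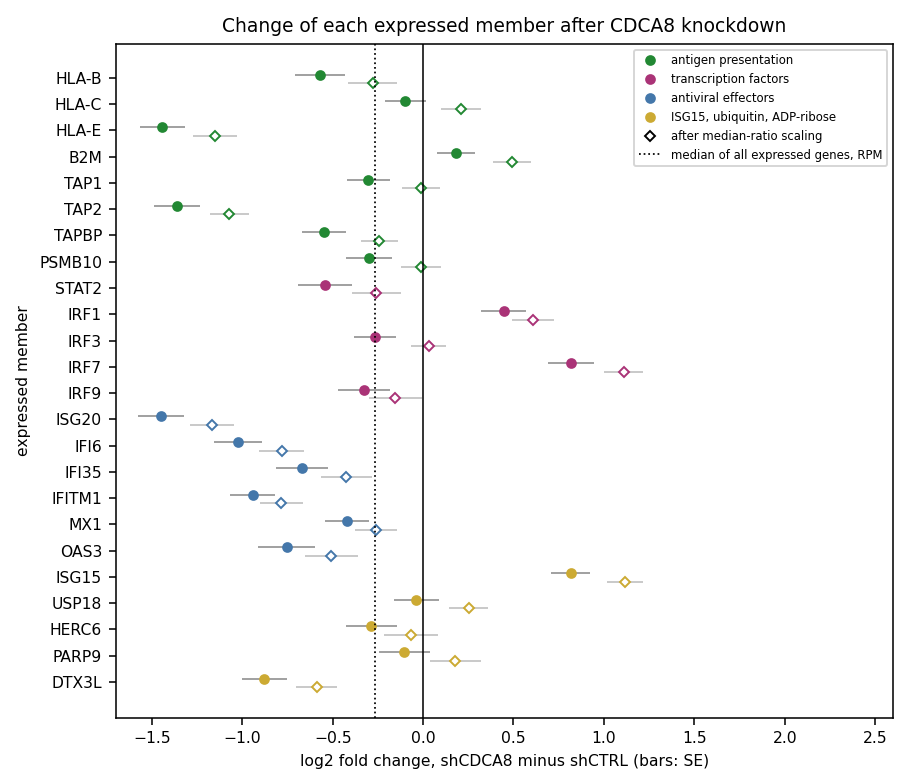
Log2 fold change (shCDCA8 minus shCTRL) of the 24 expressed members, with bars for the SE. Filled points are RPM as deposited, open diamonds follow median-ratio scaling, and the dotted line marks the median of all expressed genes, -0.27. ISG20 at -1.45 and HLA-E at -1.44 lie farthest left, and IRF7 and ISG15 at 0.82 farthest right.

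The other 11 effectors were under 1 RPM: IFI27, IFI44, IFIT1, IFIT2, IFIT3, IFIT5, OAS1, OAS2, BST2, XAF1 and SAMD9. These include genes that interferon-treated cells make in large amounts, such as the IFIT family, which binds viral RNA. IFIT1 had 11 and 4 reads in shCTRL and 19 and 12 in shCDCA8, and IFIT3 had 6 and 8 and then 5 and 2. IFIT2 had 20 and 17 reads in shCTRL and 29 and 8 in shCDCA8, which spans both controls. IFIT5 had 35 and 21 reads and then 15 and 29. In the RefSeq models the IFIT genes lie within the span of LIPA, so strandless counts of them are uncertain. None of the 4 IFIT genes passed edgeR's quasi-likelihood test on recovered reads without a level filter (adjusted p 0.0807 for IFIT1 and 0.601 to 0.919 for the others).

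OAS1, a 2-5A synthetase like OAS3, had 21 and 21 reads in shCTRL and 19 and 30 in shCDCA8. OAS2 had 2 and 3 reads and then 0 and 2, where 0 of the library's reads allows up to 0.0574 RPM. Only OAS3 of the family was expressed. BST2, or tetherin, which holds budding viruses on the cell, had 49 and 34 reads in shCTRL and 18 and 19 in shCDCA8 (0.919, 0.728, 0.345 and 0.344 RPM). Its groups did not overlap, and in the unfiltered edgeR quasi-likelihood test its log2 fold change was -0.87 (adjusted p 0.0464). IFI27, IFI44, XAF1 and SAMD9 had at most 9 reads in any library. With IFIT3 and OAS2 they make 6 members with at most 10 reads in every library, and none of the 6 passed the unfiltered edgeR quasi-likelihood test (adjusted p 0.601 to 0.864).

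Both sensor members, which recognise cytosolic RNA, were under the limit. DDX58, which encodes RIG-I, was at 0.675 and 0.578 RPM in shCTRL against 0.861 and 0.615 RPM in shCDCA8. IFIH1, which encodes MDA5, was at 1.09 and 0.706 RPM and then 0.861 and 0.742 RPM. The groups overlapped for both sensors, and neither passed the unfiltered edgeR quasi-likelihood test (adjusted p 0.121 and 0.6).

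**Figure D3:**
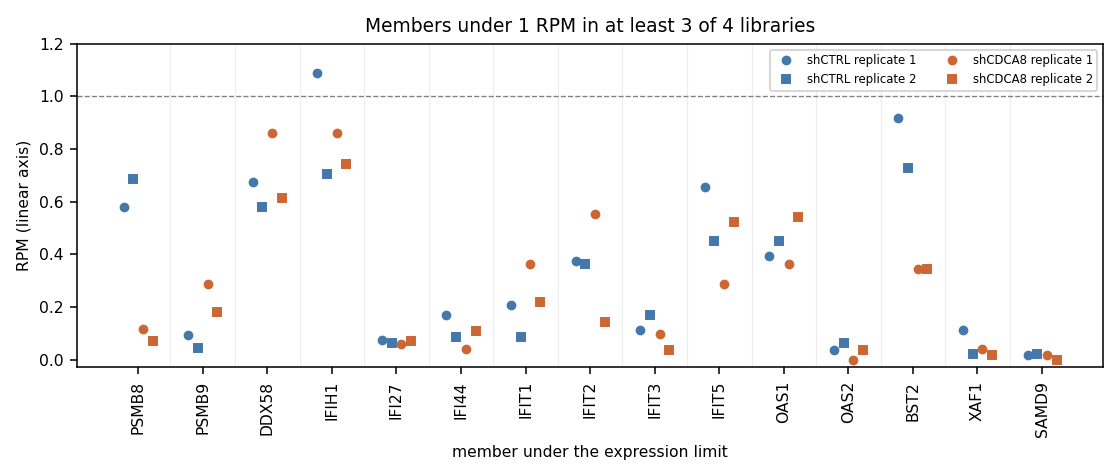
RPM of the 15 members under the limit in each library, on a linear axis, with shCTRL in blue and shCDCA8 in orange. BST2 and PSMB8 sit lower in both shCDCA8 libraries, PSMB9 and IFIT1 higher, and only IFIH1 passes 1 RPM, in 1 library.

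The 5 members of the ISG15, ubiquitin and ADP-ribosylation group were all expressed, and ISG15 itself rose. The ISG15-activating enzyme UBA7, the conjugating enzyme UBE2L6 and the ligase HERC5, which are no members, were under the limit of expression. UBE2L6 had 45 and 35 reads in shCTRL and 11 and 20 in shCDCA8. In the unfiltered edgeR quasi-likelihood test its log2 fold change was -1.08 (adjusted p 0.0189). HERC5 (-0.46, adjusted p 0.259) and UBA7 (-0.52, adjusted p 0.659) did not pass that test. ISG15, the ubiquitin-like protein joined to other proteins after interferon, was at 23.5 and 22.2 RPM in shCTRL against 41.7 and 40.2 RPM in shCDCA8. Its log2 fold change was 0.82 (SE 0.109, adjusted p 4.44e-05), and it was a higher call under every alternative run, from 0.77 to 1.24. The nearest expressed genes on either side of ISG15 in RefSeq order did not rise: HES4 was at -0.23 (adjusted p 0.0962) and AGRN fell by 0.48 (adjusted p 0.00497). Genes that were not expressed were skipped, so these need not be adjacent. Of the nearest expressed genes to IRF1, RAD50 rose by 0.48 (adjusted p 0.0230) and SLC22A5 was at -1.06 (adjusted p 5.21e-05). Of those to IRF7, PHRF1 was at 0.34 (adjusted p 0.0678) and DEAF1 at -1.62 (adjusted p 2.65e-07). A regional cause was not tested.

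USP18, the protease that removes ISG15 and damps receptor signalling, was at 12.5 and 12.6 RPM in shCTRL against 12.0 and 12.3 RPM in shCDCA8. Its log2 fold change of -0.04 (SE 0.122, adjusted p 0.804) turned to 0.25 (adjusted p 0.0699) after median-ratio scaling and to 0.36 (adjusted p 0.0331, a higher call) in the unfiltered edgeR fit, and USP18 has near-identical copies, so its count is uncertain. HERC6, a ligase related to the ISG15 ligase HERC5, was at 2.66 and 2.65 RPM and then 2.32 and 1.72 RPM (-0.29, SE 0.141, adjusted p 0.0928). The eraser and this ligase therefore did not pass the test where the modifier did.

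DTX3L, a ubiquitin ligase that works in a complex with PARP9, was at 17.6 and 17.5 RPM in shCTRL against 9.38 and 8.83 RPM in shCDCA8. It fell by 0.88 (SE 0.123, adjusted p 6.20e-05). PARP9, its partner, was at 9.34 and 10.7 RPM in shCTRL against 10.1 and 8.45 RPM in shCDCA8, with overlapping groups (-0.10, SE 0.140, adjusted p 0.527; 0.18 after median-ratio scaling). The log2(RPM + 1) ratio of DTX3L to PARP9 was 0.85 and 0.65 in shCTRL and -0.10 and 0.06 in shCDCA8, a change of -0.77 in a pair chosen after its values were seen (exact permutation p 0.333, the smallest possible). The 2 genes share the start region printed above and overlap each other there. Of the 5 genes in this group 1 rose, 1 fell and 3 did not pass the test, with a median of -0.10. Of all genes 18.8% rose and 47.6% fell.

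**Figure D4:**
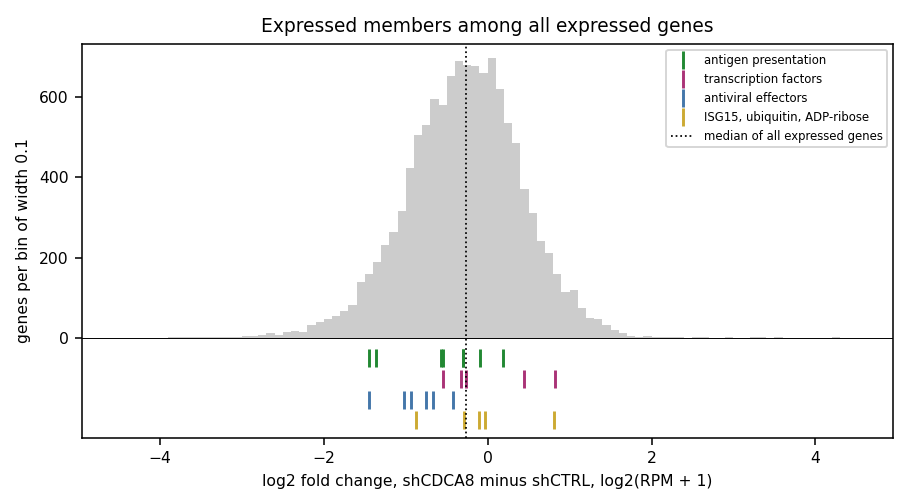
Histogram of the log2 fold changes (shCDCA8 minus shCTRL) of all 11833 expressed genes, as genes per bin, with 1 coloured tick per expressed member in a row for each role below it. The 6 effector ticks, with a median of -0.85, lie left of the median of all genes at -0.27 (dotted), and the ISG15 group spans both sides of it.

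The rest of the pathway was described from lists chosen by role. Their counts stand beside 18.8% higher and 47.6% lower of all expressed genes, and 33.2% and 33.6% after median-ratio scaling. Of the interferon ligand genes 2 were in the table, IFNL1 and IFNL3, and neither was expressed. Among 9 expressed genes of the receptors, their kinases and STAT3, 3 rose and 4 fell, with a median of -0.08. JAK1 was under 2 RPM in all 4 libraries, at 1.99 and 1.84 RPM in shCTRL against 1.68 and 1.83 RPM in shCDCA8 (-0.08, adjusted p 0.593; 0.12 after median-ratio scaling). The 2 chains of the interferon gamma receptor went opposite ways: IFNGR1, the ligand-binding chain, rose by 1.02 (SE 0.161, adjusted p 0.000153) and IFNGR2 fell by 1.19 (SE 0.120, adjusted p 5.15e-06). IFNAR1, a type I receptor chain, rose by 0.50 (adjusted p 0.00331) and TYK2 fell by 0.59 (adjusted p 0.00182). The TYK2 call ended in 4 of 16 alternatives, edgeR and DESeq2 on recovered reads among them (-0.30, adjusted p 0.0611, and -0.29, adjusted p 0.0624). IL10RB, a chain of the type III interferon receptor, was at 7.32 and 7.81 RPM in shCTRL against 4.27 and 3.53 RPM in shCDCA8, and it fell by 0.81 (SE 0.140, adjusted p 0.000299).

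Among 9 expressed inhibitors of the pathway 4 rose and 1 fell, with a median of 0.31, and after median-ratio scaling 6 were higher and 0 lower. The phosphatase gene PTPN6 rose by 0.60 (adjusted p 0.00191), PTPN2 fell by 0.50 (adjusted p 0.00548; 0.124 after median-ratio scaling), and SOCS1, which blocks JAK kinases, rose by 0.33 (adjusted p 0.0339) from 0.675 and 0.771 to 1.11 and 1.21 RPM. SOCS1 passed the level filter only through the shCDCA8 libraries, and its call ended in 4 of 15 alternatives (adjusted p up to 0.158), among them those without shCTRL replicate 1, shCDCA8 replicate 1 or shCDCA8 replicate 2. Leaving out any 1 library left 2 to 4 of these calls, 2 of them without shCDCA8 replicate 2, 3 without shCTRL replicate 2 or shCDCA8 replicate 1 and 4 without shCTRL replicate 1. Of 15 expressed nucleic acid sensing genes 3 rose and 10 fell, with a median of -0.38, and after median-ratio scaling 4 were higher and 7 lower. IRF5, a factor downstream of Toll-like receptors, fell by 1.73 (SE 0.143, adjusted p 1.20e-06), from 11.3 and 13.6 to 2.85 and 3.26 RPM. ADAR, which edits double-stranded RNA and limits its sensing, fell by 1.29 (SE 0.0972, adjusted p 5.81e-07), and the kinase gene IKBKE fell by 1.35 (adjusted p 2.78e-06). IKBKE and TMEM173 passed the level filter only through the shCTRL libraries.

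Of 21 expressed further interferon-stimulated genes 2 rose and 11 fell, with a median of -0.31, and 2 of the 21, CMPK2 and IFI30, passed the level filter only through the shCTRL libraries. After median-ratio scaling 6 were higher and 9 lower, and with any 1 library left out 1 of the 2 rises was called. Apart from IFITM2 and IFITM3, PARP12 fell by 1.32 (SE 0.139, adjusted p 7.20e-06). Of 10 expressed further class I genes 1 rose and 7 fell, with a median of -0.35, and after median-ratio scaling 1 was higher and 3 lower. HLA-F, counted as lower on both scales, passed the level filter only through the shCTRL libraries. MR1, which presents microbial vitamin metabolites, fell by 1.38 (SE 0.135, adjusted p 4.02e-06). CALR, a chaperone of the peptide loading complex, fell by 0.65 (adjusted p 4.05e-05). The 1 gene of this list that rose was SPPL2A, an intramembrane protease, by 0.87 (adjusted p 7.23e-05). Its place in the class I list was a choice, and no role in class I presentation was tested. NLRC5, the class I transactivator, was under the limit at 0.694 and 0.407 RPM and then 0.364 and 0.416 RPM. Of the class II genes 4 of 13 were expressed, 1 rose and 3 fell: RFX5, a factor that binds class I and class II promoters, fell by 1.76 (SE 0.106, adjusted p 1.17e-07), RFXAP by 0.67 (adjusted p 0.00105) and HLA-DMA by 1.43 (adjusted p 2.25e-06). HLA-DMA passed the level filter only through the shCTRL libraries, and RFXAP lost its call in 2 of 15 alternatives (adjusted p up to 0.0675). RFXANK, the gene that rose (0.30), lost its call when any 1 library was left out. The master regulator CIITA and the chains CD74 and HLA-DRA were at or near 0.

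**Figure D5:**
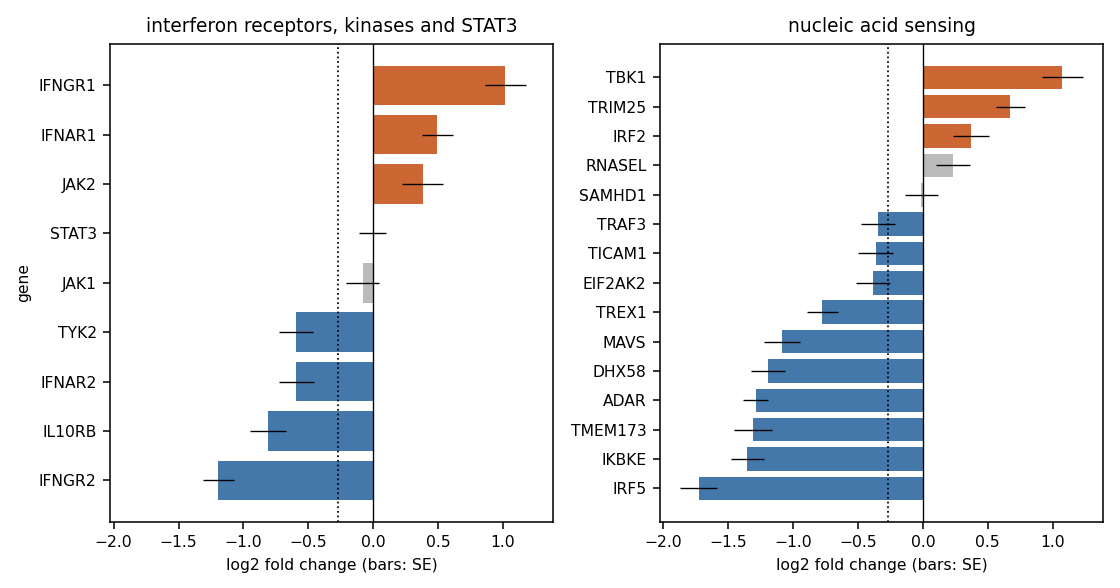
Log2 fold change (shCDCA8 minus shCTRL) of the 9 expressed genes of receptors, kinases and STAT3 (left) and the 15 expressed nucleic acid sensing genes (right), with bars for the SE, orange for genes that rose, blue for genes that fell, grey for those that did not pass the test, and the median of all genes dotted. IFNGR1 at 1.02 and IFNGR2 at -1.19 end the left panel, and IRF5 at -1.73 is the lowest bar on the right.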

How the data were processed

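Polyadenylated RNA of C4-2 cells was measured in 2 shCTRL and 2 shCDCA8 libraries. The values are reads per 1000000 (RPM) per gene as deposited by the authors. TopHat, HTSeq, edgeR, cutadapt and the build hg19 are named in the submitters' processing notes without versions or roles, and no source used here gives the strand setting. All values were whole reads within 0.01 of a read, with totals of 46709612 to 55289855 reads per library.

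Genes at 1 RPM in at least 2 libraries were kept, log2(RPM + 1) was fitted with limma 3.58.1 in R 4.3.3 with a variance trend, and p-values were adjusted over all 11833 kept genes (threshold 0.05). The recovered reads were tested with edgeR 4.0.16 (3851 genes higher) and DESeq2 1.42.0 (3639 higher) as alternatives, beside other scalings, filters, pseudocounts, a replicate block and leaving out each library. The fit was also run on simulated reads with few changed genes and no shift over all genes. These data differ in both respects, so that run does not show how the fit performs here.

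Every member is named; full statistics are given for calls of at least 2-fold and the 3 smallest p-values of each role, and those of the other members were added so that each is accounted for. Of each pathway list the 3 smallest p-values are named, with JAK1, TYK2, IFNAR1 and NLRC5; some genes of these and the marker lists are not reported here and were left out of the lists' counts and sums. The members and lists were chosen with earlier results of these data known. Ratios of DTX3L to PARP9 and TAP2 to TAP1 and the unfiltered edgeR fit were added after seeing the data. Floors cover counting error only.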

Additional observations from a re-analysis of the deposited data

How the results depend on the processing

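Among the 16 called members, 10 kept their call in every alternative run that tested them: DTX3L, HLA-E, IFI6, IFITM1, IRF1, IRF7, ISG15, ISG20, OAS3 and TAP2. IFITM1 and IRF1 passed the level filter only through the group where they were high, and most alternatives kept that filter. HLA-B, TAP1, TAPBP, STAT2, IFI35 and MX1 lost their call in at least 1 alternative, and 6 members, B2M, HLA-C, IRF3, IRF9, PSMB10 and USP18, gained one in at least 1. The genes higher over the whole table numbered 2224 as deposited, 3931 after median-ratio scaling, 3980 after quantile normalization, 3985 after scaling to the row sum, 3851 with edgeR, 3639 with DESeq2 and 4701 with edgeR without a level filter, and those lower went from 5628 to 3721 (quantile) and 3575 (DESeq2). Members lower went from 13 to 8 (median-ratio, quantile, row sum, edgeR) or 7 (DESeq2), and members higher from 3 to 7 with edgeR without a filter (B2M, HLA-C, PSMB9 and USP18 added). Presentation members called went from 5 to 3 (median-ratio, row sum, edgeR, DESeq2), and further class I genes from 8 to 4 under those and quantile normalization, and to 5 to 6 with 1 library left out, 5 without shCTRL replicate 2. A 5 RPM filter left 2 of 6 effector calls and 2 of 4 class II calls, since fewer genes were tested, and no filter gave 7 class II calls and 1 ligand call. Inhibitor calls, 5 as deposited, were 2 to 4 with 1 library left out. The PSMB9 to PSMB6 difference was 0.50 with 0.1 RPM added.

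Signs turned, in the order median-ratio, quantile, row sum, edgeR, DESeq2 and unfiltered edgeR, for USP18 (0.25, 0.21, 0.27, 0.27, 0.27, 0.36), PSMB5 (0.23, 0.15, 0.24, 0.22, 0.23, 0.31), JAK1 (0.12, 0.30, 0.13, 0.18, 0.18, 0.27), HLA-C (0.21, 0.15, 0.22, 0.21, 0.22, 0.30) and PARP9 (0.18, 0.15, 0.19, 0.20, 0.20, 0.29). With 1 library left out HLA-C ranged from -0.22 to 0.019 and PARP9 from -0.22 to 0.013, both above 0 without shCDCA8 replicate 2. IRF3 turned to 0.031, 0.044, 0.026, 0.032 and 0.12 in the same order without quantile. TAP1 turned to 0.0020 (row sum) and 0.071 (unfiltered edgeR), PSMB10 to 0.0014 and 0.071, and quantile normalization turned IRF9 to 0.070, MX1 to 0.0083 and HERC6 to 0.084. The cause of these changes was not tested.

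The replicate numbers do not establish pairing. Across the kept genes, the replicate 1 minus replicate 2 differences of the 2 groups had a correlation of 0.31, whose cause was not tested. A replicate block gave 8901 calls (2712 higher, 6189 lower) against 7852, and 5 transcription factor calls against 3. With 2 libraries per group, genes of a few reads were tested only without the level filter, and leaving 1 library out assumes that the lone library varies like the others.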
